A study of Mus musculus with 5 samples.

Results

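In all, 7 genes of epithelial cells were followed over 5 single-colour microarrays: Cldn6, Cldn7, Crb3, Ovol1, Plet1, Spink1 and Tff3. They were taken as every probe whose gene symbol, brought up to date, was one of these names, which gave 1 probe for each of the 7 genes, among 26423 probes and 17742 named genes. Several of the 7 had been picked because they were lower in knockdown than in control cells, so the knockdown differences below describe these arrays and support nothing on their own. Spink1 and Plet1 were listed under the older symbols SPINK3 and 1600029D21RIK.

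The study differentiated mouse embryonic stem cells (ESCs) of the line 46C towards heart muscle and knocked down Linc1405, a long non-coding RNA, whose complex with the T-box factor Eomes the series title names. Each of the 5 groups held 1 array. They were undifferentiated ESCs of the control genotype (day 0), cells at day 4 of differentiation, labelled mesoderm, from the control and the knockdown line, and cells at day 10, labelled cardiomyocytes, from the same pair of lines. Day 0 cells grew in 15% serum with LIF at 1000 U/ml on feeder cells that were taken off before harvest. The medium of both lines at day 4 was serum-free and held 0.2 ng/ml of Bmp4, 5 ng/ml of Activin A and 5 ng/ml of VEGF. At day 10 the medium of both lines held 10 ng/ml of bFGF, 5 ng/ml of VEGF and 25 ng/ml of FGF10. The knockdown samples carry the tag KIpA; what it stands for, and whether the line is a single clone, are not given in the sources used here. Knockdown ESCs at day 0 were not analysed here, so day 0 has a control array only. Without replicate arrays no test was possible, and line, culture and array cannot be told apart in any difference below.

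Epithelial sheets are sealed near their apical side by tight junctions, whose strands are built from claudins. Crumbs proteins mark the apical membrane above those junctions and help to set cell polarity. ESCs and the early epiblast are epithelial in character, cells that enter mesoderm lose many of these contacts, and endoderm keeps or rebuilds them. Gut and other endodermal epithelia also secrete protective peptides, among them trefoil factors and Kazal-type inhibitors of trypsin.

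The 4 members whose windows RefSeq's promoter table held were Cldn6, Cldn7, Crb3 and Plet1, and these were also the 4 with the most alike profiles over the arrays, so the 250 bases ahead of an annotated start of each are shown. All windows are on the plus strand of GRCm38.p6, read 5′ to 3′, with every CAGGTG or its reverse complement CACCTG in capitals, the E-box that the repressors of the ZEB and SNAIL families bind. Ovol1, Spink1 and Tff3 have no window shown here.
Cldn6, chr17:23679115-23679364: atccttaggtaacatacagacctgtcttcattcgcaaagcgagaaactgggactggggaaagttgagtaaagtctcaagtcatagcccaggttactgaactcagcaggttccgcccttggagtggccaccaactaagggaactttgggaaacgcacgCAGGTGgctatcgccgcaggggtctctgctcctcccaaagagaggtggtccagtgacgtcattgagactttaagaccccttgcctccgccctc
Cldn7, chr11:69964529-69964778: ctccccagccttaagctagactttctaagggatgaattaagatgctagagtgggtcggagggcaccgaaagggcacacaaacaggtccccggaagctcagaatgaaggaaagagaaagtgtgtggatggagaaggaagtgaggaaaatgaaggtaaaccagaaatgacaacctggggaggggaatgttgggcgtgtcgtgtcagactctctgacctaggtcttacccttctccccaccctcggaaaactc
Crb3, chr17:57061951-57062200: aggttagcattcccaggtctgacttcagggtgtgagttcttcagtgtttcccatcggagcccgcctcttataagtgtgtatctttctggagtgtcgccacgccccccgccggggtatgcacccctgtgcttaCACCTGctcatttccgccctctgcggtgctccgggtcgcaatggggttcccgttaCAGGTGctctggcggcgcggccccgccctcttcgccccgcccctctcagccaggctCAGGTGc
Plet1, chr9:50494275-50494524: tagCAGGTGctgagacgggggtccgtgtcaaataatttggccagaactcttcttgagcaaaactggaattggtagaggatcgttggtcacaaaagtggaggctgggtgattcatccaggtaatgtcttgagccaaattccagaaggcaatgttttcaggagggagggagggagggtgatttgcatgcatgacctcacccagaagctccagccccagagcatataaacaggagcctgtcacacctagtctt

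The Crb3 window shown held 3 E-boxes, which its other annotated start, with a largely overlapping window, shares, with first bases at -118, -63 and -7 from the start. Among all 32851 promoter windows of this length 0.247% held 3 or more, and 17.2% held at least 1. The Cldn6 window held 1 at -93 and the Plet1 window 1 at -247. The Cldn7 window shown held none, while the window of its other annotated start held 2, at -97 and -57. The other letters searched, on both strands, were CCGTTA (bound by OVOL factors, in 2.18% of windows), AACCNGTT (grainyhead-like factors, 1.79%), TGTTTAC (FOXA factors, 3.17%) and TATAAA (the TATA box, 12.4%). Crb3 held 1 CCGTTA, at -69 to -64 and so directly before the E-box at -63 without overlapping it, and Plet1 held 1 TATAAA at -30. AACCNGTT and TGTTTAC had 0 matches in the windows of these 4 genes. A match is only a run of letters in a window, and no binding was measured.

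Levels are given as log2 of the quantile-normalized intensity, a unit without an absolute scale, and a level of one gene is not compared with that of another because each comes from its own probe. Intensities under 100 (6.64 on the log2 scale) were set to that floor, and 0 of the 7 members lay at the floor on any array. A difference was counted where the brighter of the 2 arrays reached 9.16, the 50th percentile of all probes, and the arrays differed at least 2-fold, or 1 on the log2 scale. Median intensities as deposited ran from 344 to 745. The knockdown array at day 10 stood apart in its low values, with 1050 at or below 0 as deposited against 0 to 38 on the other 4 arrays. Every knockdown difference at day 10 rests on that array, and its part in them was not tested. The stage labels were checked against markers. The median log2 intensity of 13 measured pluripotency genes was 15.96 in ESCs and 10.93 in control cells at day 4. The mesoderm gene Mesp1 was at the floor in ESCs and on both day 10 arrays and stood at 13.78 in the control and 12.86 in the knockdown array at day 4. Mixl1 was also brightest in control cells at day 4 (12.21, against 8.21 in ESCs). Other markers did not single out day 4. Eomes stood at 12.15 in ESCs and 12.01 in control cells at day 4. Kdr and Pdgfra rose by day 4 but were still at 13.26 and 14.56 in control cells at day 10. All 14 measured cardiomyocyte genes were at least 2-fold higher in control cells at day 10 than at day 4, and 13 of 14 in knockdown cells. Feeder fibroblast genes had a log2 summed intensity of 15.17 in ESCs and 12.22 in control cells at day 4. Their sum was 17.81 in the control and 17.90 in the knockdown array at day 10, so the list does not single out feeder cells. No probe was identified here for Linc1405, so the knockdown itself was not checked.

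Cldn6, a claudin of embryonic and fetal epithelia, was brightest in the ESC array. Its log2 intensity was 14.51 in ESCs, 12.97 in the control and 11.20 in the knockdown array at day 4, and 12.79 in the control and 9.93 in the knockdown array at day 10. The knockdown array was the lower of the pair on both days. The step of control cells from day 4 to day 10 was -0.17, and -0.93 with the values as deposited. The difference, knockdown minus control, was -1.77 at day 4 (3.42-fold lower) and -2.87 at day 10 (7.29-fold lower). As a yardstick for probe error only, differences from separate probes of a gene had a between-probe SD of 0.207 over 1034 genes at day 4 and of 0.271 over 1074 genes at day 10. It does not cover the spread between cultures, and each of the 7 members had a single probe.

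Cldn7, a claudin also found along the lateral membrane of many epithelia, followed the same order at both days. It stood at 12.61 in ESCs, 11.35 in the control and 10.27 in the knockdown array at day 4, and 10.67 in the control and 8.92 in the knockdown array at day 10. The knockdown difference was -1.09 at day 4 and -1.74 at day 10. The first of these passed 2-fold narrowly and was -0.91 with the values as deposited. In control cells the step of Cldn7 from day 4 to day 10 was -0.69 (between-probe SD 0.743), short of 2-fold, and -1.41, past it, with the values as deposited.

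Crb3, the Crumbs protein of most epithelia, was brightest in ESCs and far dimmer from day 4 on. Its log2 intensity was 12.00 in ESCs, 9.76 in the control and 8.52 in the knockdown array at day 4, and 9.29 in the control and 8.39 in the knockdown array at day 10. Control cells at day 4 minus ESCs gave -2.24, a level 4.72-fold lower. The knockdown difference was -1.24 at day 4 and -0.90 at day 10, the second just short of 2-fold and -1.11 with scaling to a common 75th percentile. The step of control cells from day 4 to day 10 was -0.47, and -1.38 with the values as deposited. Both knockdown arrays lay below the 50th percentile of all probes, so Crb3 passed the intensity filter only through control cells.

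Ovol1, a zinc-finger repressor that favours the epithelial state, gave signal past the filter in control cells at day 4 alone. It stood at 11.68 there, against 8.74 in ESCs, 8.56 in knockdown cells at day 4, 8.15 in the control and 7.91 in the knockdown array at day 10. The control array at day 4 was 7.67-fold above ESCs and 11.6-fold above control cells at day 10; the second step, -3.53, was -4.49 with the values as deposited. The knockdown difference at day 4 was -3.13, 8.74-fold lower, the 6th lowest of 10699 genes past the filter. Readings other than that of control cells at day 4 were not shown to be above background, so the sizes of these folds are not settled. At day 10 both arrays were below the filter and differed by -0.24, and this small difference was 0.03 with the values as deposited.

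Plet1, a surface glycoprotein of extraembryonic ectoderm and early endoderm, varied least among the 7. Its levels were 10.51 in ESCs, 9.64 in the control and 8.50 in the knockdown array at day 4, and 9.88 in the control and 8.44 in the knockdown array at day 10. Both knockdown arrays lay below each of the 3 control arrays, and both were below the filter level. The difference was -1.14 at day 4 and -1.44 at day 10, and -0.93 at day 4 with the values as deposited. Over the 5 arrays Plet1 spanned 2.06 on the log2 scale, whereas Spink1 spanned 5.26.

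Spink1, the secreted pancreatic trypsin inhibitor that embryonic endoderm also makes, was brighter in control cells on both days of differentiation than in ESCs. It stood at 10.08 in ESCs, 13.88 in the control and 12.14 in the knockdown array at day 4, and 13.80 in the control and 8.63 in the knockdown array at day 10. Knockdown cells at day 4 were 3.34-fold below control but still above ESCs, and at day 10 they were below the ESC array and below the filter. The difference at day 10 was -5.17, 36.0-fold lower, the 2nd lowest of 10880 genes past the filter. The knockdown reading at day 10 was not shown to be above background, so the size of the fold is not settled. Within the knockdown line the step from day 4 to day 10 was -3.51, and in the control line it was -0.08 (-0.88 with the values as deposited and 0.03 with loess centring).

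Tff3, a trefoil peptide of mucosal surfaces, was past the filter in 1 array, that of control cells at day 10. It stood at 11.28 there, against 7.53 in ESCs, 7.61 in the control and 7.63 in the knockdown array at day 4, and 7.60 in knockdown cells at day 10. The 4 other arrays lay close together and below the filter. The difference between the readings at day 10 was -3.68, 12.8-fold; the knockdown reading was not shown to be above background, so the size of the fold is not settled. The step from day 4 to day 10 in control cells was 3.67 on the log2 scale, and 2.92 with the values as deposited. With the values as deposited the difference between lines was -3.75, and it was -4.27 with scaling to a common 75th percentile.

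**Figure D1:**
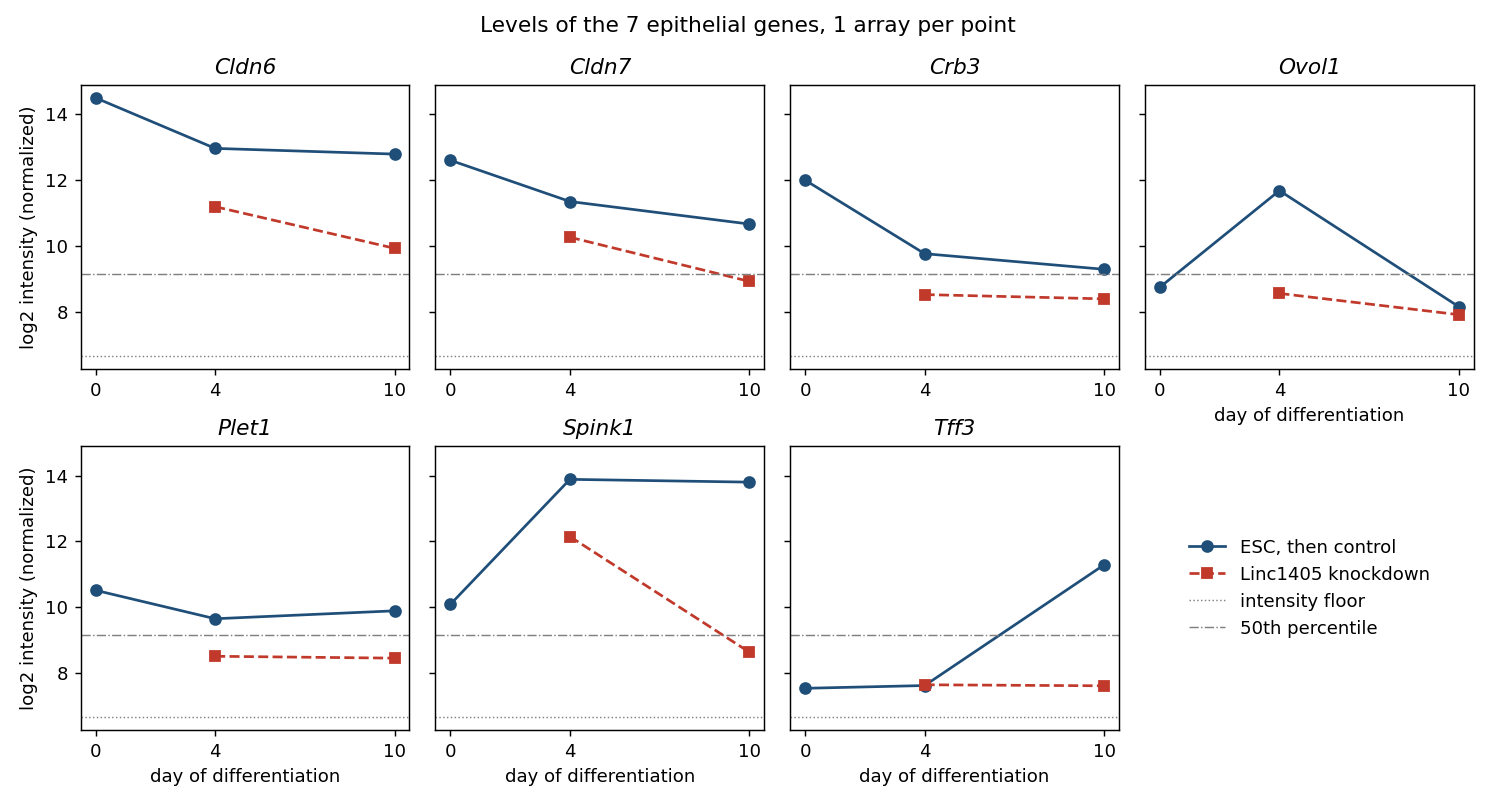
Log2 normalized intensity (vertical axis) of each of the 7 genes against the day of differentiation (horizontal axis), 1 array per point. Circles with a solid line are ESCs followed by control cells, squares with a dashed line are Linc1405 knockdown cells, and grey lines mark the floor (6.64) and the 50th percentile (9.16). Cldn6, Cldn7, Crb3 and Plet1 are highest in ESCs, Ovol1 peaks in control cells at day 4 (11.68), and Tff3 is past the percentile line only in control cells at day 10 (11.28).

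Between ESCs and control cells at day 4, 3 members were at least 2-fold lower (Cldn6, Cldn7, Crb3) and 2 were higher (Ovol1 by 2.94, Spink1 by 3.80), while Plet1 differed by -0.87 and Tff3 was below the filter. Over all 11293 genes past the filter 13.9% were lower and 12.8% higher by that measure. Between days 4 and 10 of the control line, 1 member was lower (Ovol1, -3.53) and 1 higher (Tff3, 3.67), where the shares over all genes were 19.4% and 19.1%. Within the knockdown line over the same days only 3 members passed the filter, and Crb3, Ovol1, Plet1 and Tff3 did not. These 3 were lower (Cldn6 -1.27, Cldn7 -1.34, Spink1 -3.51), against 18.1% of 11413 genes, and 0 were higher, against 18.7%. Cldn7 and Spink1 passed only through the brighter array, that of day 4, so nothing is read from this count. With the values as deposited the median of all genes moved to 0.17, -0.72 and -0.58 in these 3 steps. The counts of higher and lower genes went from 1447 and 1574 to 2289 and 1261 in the first, from 2182 and 2214 to 1092 and 5483 in the second and from 2138 and 2061 to 1408 and 4281 in the third; with loess centring they were 2563 and 1601 in the second and 2507 and 1497 in the third. With the values as deposited Cldn7 was short of 2-fold between ESCs and control cells at day 4 (-0.88). Cldn7, Crb3 and Ovol1 were then the 3 members lower in control cells from day 4 to day 10. The knockdown line's steps, also as deposited, were -1.76 for Cldn6, -2.003 for Cldn7 and -4.26 for Spink1. The step of Plet1 in control cells from day 4 to day 10 was 0.24, and -0.60 with the values as deposited. These steps share arrays with the knockdown comparisons and with each other.

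Set against control, 6 of the 7 members passed the filter at day 4 and these 6 were at least 2-fold lower in knockdown cells, beside 1.47% of 10699 genes. Of the 7, 0 were higher, beside 0.804%. At day 10, 6 members passed and 5 were lower, beside 3.62% of 10880 genes, and 0 were higher, beside 2.5%. The members were chosen partly on these differences, so nothing is read from the counts. Crb3, Ovol1 and Plet1 at day 4, and Cldn7, Crb3, Plet1, Spink1 and Tff3 at day 10, passed the filter only through the control array. The median over the 7 members was -1.24 at day 4 and -1.74 at day 10, where the median of all genes was 0 on both days. With the values as deposited the median of all genes moved to 0.20 and 0.37, the split of higher to lower genes went from 86 and 157 to 135 and 117 at day 4 and from 272 and 394 to 1093 and 160 at day 10, and the members' medians were -1.01 and -1.50.

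Cldn6, Cldn7, Plet1 and Spink1 were at least 2-fold lower on both days, 4 of the 5 members past the filter on both; with the values as deposited Cldn7 and Plet1 were short of 2-fold at day 4. The 2 comparisons use separate arrays but the same pair of lines, and all 5 arrays were quantile normalized together. The members were chosen partly on these differences, so nothing is read from their count. Among all genes, 23 of 9846 past the filter on both days were lower on both (0.234%), which is 14.6% of the 157 lower at day 4 and 5.84% of the 394 lower at day 10. The knockdown difference moved between the days by -3.70 for Tff3, -3.43 for Spink1, -1.09 for Cldn6 and 2.88 for Ovol1, and by less than 1 for Cldn7 (-0.66), Plet1 (-0.30) and Crb3 (0.34). Tff3 and Ovol1 each passed the filter in a single array, of control cells, so a difference between the lines could be counted on that day alone.

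**Figure D2:**
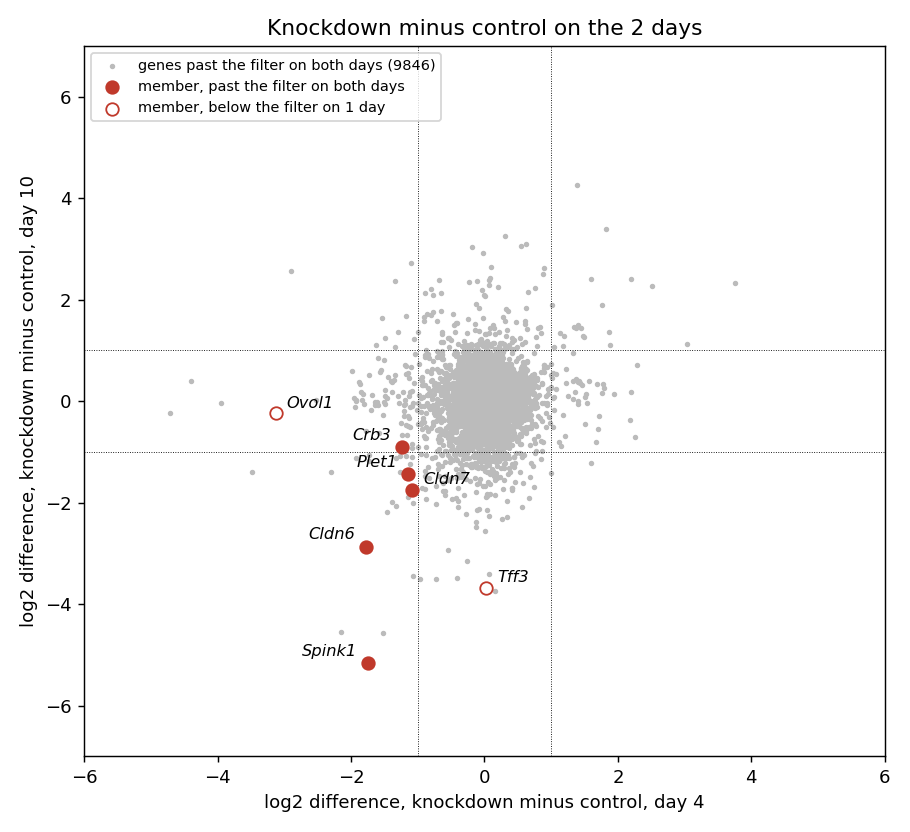
Log2 difference of knockdown minus control at day 10 (vertical axis) against day 4 (horizontal axis). Grey points are the 9846 genes past the intensity filter on both days, of which 1 lies outside the axes, red points are members (open where a member was below the filter on 1 day), and dotted lines mark 2-fold. Cldn6, Cldn7, Plet1 and Spink1 lie in the lower left field, Crb3 just above the lower line (-0.90), Ovol1 to the left (-3.13, -0.24) and Tff3 at the bottom centre (0.02, -3.68).

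Of the 21 other claudins, 5 passed the filter at day 4 and 7 at day 10, and 0 were at least 2-fold lower on either day. Over all genes 1.47% were lower and 0.804% higher at day 4, and 3.62% and 2.5% at day 10. These shares stand beside the counts of every list below. With 5 and 7 genes past the filter, a count of 0 lower does not set the claudins apart from all genes. Cldn11 was higher at day 4 (1.09), and Cldn5, the endothelial claudin (1.14), and Cldn15 (1.37) were higher at day 10. Cldn3 and Cldn4, which many epithelia use beside Cldn7, were bright in ESCs (11.44 and 12.87) and later near or below the filter level of 9.16, Cldn3 between 8.51 and 9.24 and Cldn4 between 8.44 and 9.16. Their differences were -0.31 and -0.16 at day 4 and 0.07 and -0.37 at day 10, and the other Cldn4 probe gave -0.41 and -0.59. Cldn9, the gene next to Cldn6, was below the filter in every array, and at day 10 read 8.03 in the control and the floor in the knockdown array.

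Among 17 measured tight junction scaffold genes, 13 passed the filter at day 4 with 0 lower or higher, and 14 at day 10 with 1 lower, Bves (-1.48), which heart muscle also expresses. Occludin (Ocln) was below the filter throughout, with a difference of -1.21 at day 10 that was therefore not counted. Of 22 apical-basal polarity genes, 18 passed the filter on each day; 0 were 2-fold apart at day 4, and 1, Slc9a3r1 (1.23), was higher at day 10. Crb2, the Crumbs gene of early mesoderm ingression, stood at 14.20 in the control and 14.28 in the knockdown array at day 4 (0.08 apart). At day 10, 0 scaffold genes were lower and 4 polarity genes were higher with the values as deposited. The medians of these lists were -0.09 and 0.06 at day 4 and -0.23 and 0.04 at day 10.

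Epithelial adhesion and surface genes lay lower at day 10 in part. At day 4, 14 of 18 measured genes passed the filter and 0 were 2-fold apart. Cdh1, which encodes E-cadherin, was at 16.35 in ESCs and, at day 4, at 13.45 in the control and 12.57 in the knockdown array (-0.88), and Epcam differed by -0.60 (other probe -0.42). At day 10, 4 of 13 were lower and 0 higher: Tmprss2 (-2.93), a membrane serine protease, Epcam (-1.48, other probe -1.33), Spint1 (-1.46) and Ap1m2 (-1.10). Cdh1 differed by -0.72 at day 10. The list's counts at day 10 were 3 lower and 1 higher with the values as deposited. The list medians were -0.12 and -0.26.

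Desmosome and keratin genes went both ways at day 10. At day 4, 0 of 12 past the filter were 2-fold apart. At day 10, 3 of 13 were higher, Krt7 (2.09), Dsc2 (1.92) and Ppl (1.70), and 2 were lower, Pkp2 (-1.62) and Perp (-1.43), with a median of 0.05, and 4 were higher and 1 lower with the values as deposited. The Krt8 probe lay at the floor on all 5 arrays. Epithelial transcription and splicing factors had 0 of 8 apart at day 4, and at day 10 Grhl1 (-2.35, other probe -2.52) and Esrp1 (-1.06) were lower and Tfap2c (2.20) higher among 10. As deposited, the values gave 1 lower and 3 higher, and with scaling to a common 75th percentile 1 was lower. Ovol2, the paralogue of Ovol1, was past the filter only in ESCs (9.91) and differed by -0.66 at day 4, and Grhl2 was past it only in ESCs as well (10.16). The medians of this list were -0.04 and 0.00.

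Of 19 other mucosal secreted genes measured, 4 passed the filter at day 4, with Wfdc2 higher (1.49), and 5 at day 10, with 0 apart. The brightest of them, Clu, which encodes the secreted chaperone clusterin, stood at 15.69 in the control and 15.22 in the knockdown array at day 10. Tff2, which neighbours Tff3, lay within 0.21 of the floor on all 5 arrays. Of the EMT and mesenchymal genes, 15 of 15 passed on both days: Zeb2 was lower at day 4, at 11.04 in control cells and at the floor in knockdown cells (-4.40, where the floor makes the size a lower bound), and Twist2 was higher (1.37), while at day 10 Zeb2 differed by 0.40 and Prrx1 was higher (1.04, other probe 0.35). Of these genes 2 were higher at day 4 and 4 at day 10 with the values as deposited. Snai1, Zeb1 and Cdh2 differed by -0.03, -0.16 and -0.53 at day 4. The medians of this list were -0.09 and -0.13, and those of the mucosal list 0.00 on both days.

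**Figure D3:**
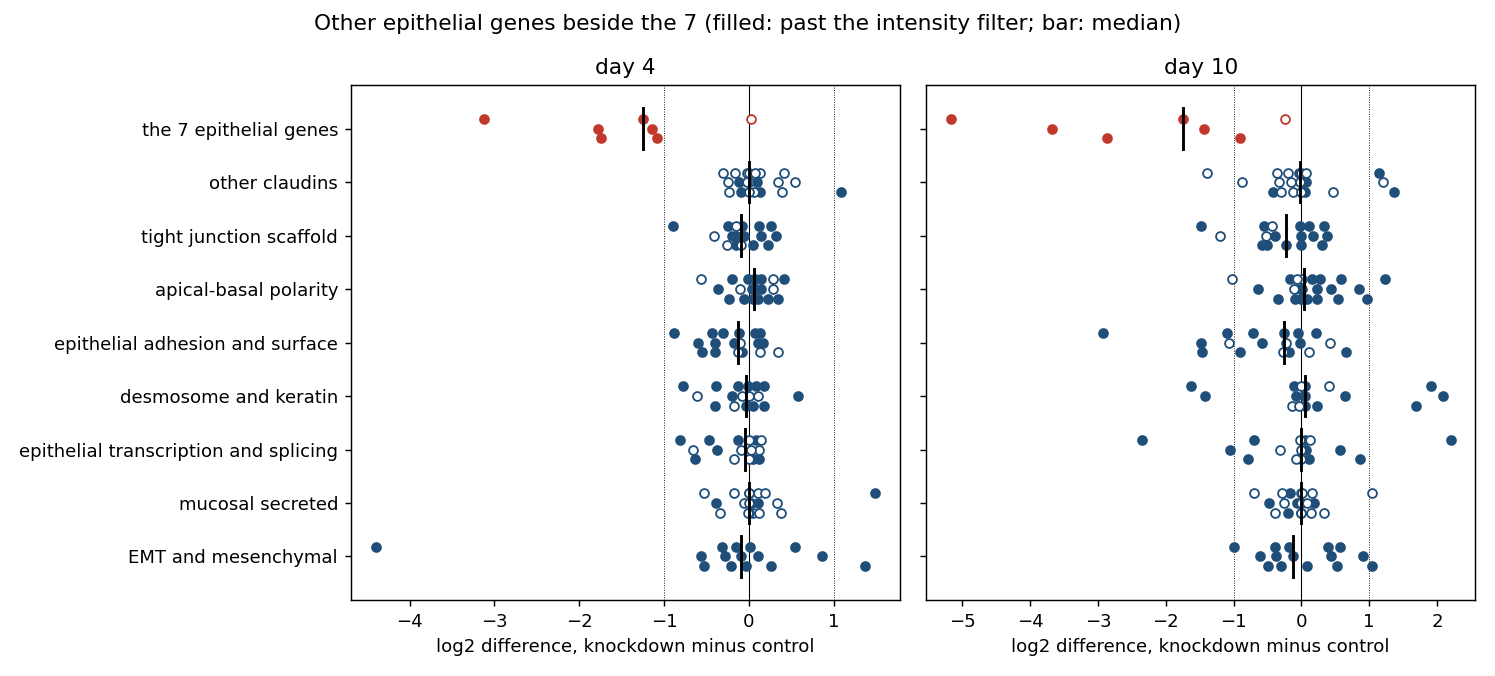
Log2 difference of knockdown minus control (horizontal axes) at day 4 (left) and day 10 (right) for the 7 genes (red) and for 8 lists of other epithelial and mesenchymal genes (blue), 1 point per measured gene. Filled points passed the intensity filter, vertical bars are list medians over all measured genes, dotted lines mark 2-fold, and the vertical position within a row has no meaning. The medians of the 8 lists lie between -0.26 and 0.06, and those of the 7 chosen genes at -1.24 and -1.74.

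Markers of other cell types also differed between the lines. In these bulk cultures fewer cells of a type and less RNA per cell cannot be told apart. Of 15 measured definitive and gut endoderm genes, 5 were at least 2-fold lower in knockdown cells at day 4 and 0 higher, led by Trh (-2.94), Otx2 (-2.90) and Foxa1 (-1.95). The log2 of the list's summed intensity was 15.68 in the control and 14.88 in the knockdown array at day 4, and Sox17, the endoderm and endothelial factor, was past the filter in both (12.26 and 11.27). In ESCs the list's summed level was 17.53, so the sum does not mark endoderm alone. At day 10, 2 of 9 past the filter were lower, Hnf4a (-1.73) and Foxa3 (-1.26), Foxa1 was at the floor in knockdown cells, and the list median was -0.59. The summed level was 15.55 in the control and 15.93 in the knockdown array, of which Gata6, a factor of endoderm and heart, gave 69.9% and 85.6%; without Gata6 it was 13.82 and 13.14. The values as deposited gave 1 gene lower and 1 higher at day 10.

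Liver-type and visceral endoderm genes were 1 lower (Ttr, -1.08) and 0 higher of 8 past the filter at day 4, and 10 lower and 1 higher of 13 at day 10, led by Apob (-3.70), Apom (-3.49) and Ttr (-3.44). Their summed level was 13.64 and 13.31 in control and knockdown cells at day 4, and 17.73 and 15.49 at day 10, when Tff3 and Spink1 stood farthest apart. The day 4 counts were 0 lower and 1 higher with the values as deposited. At day 10, 1 of the 17 genes was at the floor in knockdown cells, Apoa4, and 0 in control cells. Cardiomyocyte genes were 0 apart of 8 at day 4, and 12 lower and 1 higher of 14 at day 10, led by Ttn (-2.57), with summed levels of 19.11 and 18.01. Tnnt2 stood against them at 3.05. The cardiomyocyte counts at day 10 were 8 lower and 1 higher with the values as deposited. The part of the cardiomyocyte genes, and that of the endoderm markers, in the differences of the 7 genes was not tested.

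Epicardium and mesothelium genes, which mark another epithelium of the heart, were higher in knockdown cells at day 10, 9 of 11 past the filter with 0 lower, led by Sema3d (2.72, other probe 0.46), Wt1 (2.61) and Upk3b (2.39). Their summed level was 15.59 in the control and 17.37 in the knockdown array at day 10, and 13.43 and 13.38 at day 4, when Sema3d (-1.10, other probe 0.06) was lower among 4 past the filter (0 lower with the values as deposited). Trophoblast genes were 2 higher of 8 at day 4, Cdx2 (1.71) and Plac1 (1.19), and 5 higher of 8 at day 10, led by Rhox6 (2.95) and Rhox9 (2.92), with 0 lower on either day. Pluripotency genes were 2 lower and 0 higher of 9 at day 4, Tdgf1 (-3.48) and Tfcp2l1 (-1.15, other probe 0.0), and at day 10 the same 2 genes were lower (-1.40 and -1.88, other probe of Tfcp2l1 0.0) and Prdm14, at the floor in control cells, was higher among 8. The values as deposited gave 1 lower at day 4 and 2 higher at day 10. Feeder fibroblast genes were 1 higher of 3 at day 4, Pdgfrb (1.56), and 0 of 7 apart at day 10 (1 higher with the values as deposited). Their part in the results was not tested either.

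Profiles over the 5 arrays were compared by the root-mean-square distance between log2 levels centred on each gene's own mean, as a description over 5 points. The closest pair among the members was Cldn6 with Cldn7, at 0.476, followed by Cldn7 with Crb3 (0.505) and Cldn7 with Plet1 (0.623). The 6 pairs among Cldn6, Cldn7, Crb3 and Plet1 lay between 0.476 and 0.828, and every pair with Ovol1, Spink1 or Tff3 lay at 1.40 or more. Among 11799 candidate genes Cldn7 was the nearest to Cldn6, followed by Misp3 (0.635) and Crb3 (0.677), where the median distance of all candidates from Cldn6 was 1.63. The nearest to Cldn7 were Zglp1 (0.249), Cpn1 (0.343) and Slc39a4 (0.380), and those to Crb3 were Rasgrp2 (0.262), Map7 (0.312) and Padi6 (0.316), the last at the floor on both knockdown arrays.

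Plet1 had Hnf4a, an endoderm transcription factor, as its nearest gene, at 0.133, then Cdkn1a (0.253) and Ero1a (0.282), where the median candidate lay at 0.957. Tff3 was nearest to Apom (0.212), Nepn (0.234) and Apob (0.353), the first and last of which encode apolipoproteins of lipid transport. Spink1 had no gene closer than Clic6 (0.625), followed by Tmprss2 (0.873) and Foxa1 (1.09), the pioneer factor of endoderm. Ovol1 was nearest to Atp2b3 (0.340), Calcr (0.493) and Sp5 (0.616), a Wnt target; Atp2b3 was at the floor on the 4 arrays other than control day 4, so that its profile holds 1 measured level. These distances use the arrays by which members were chosen.

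**Figure D4:**
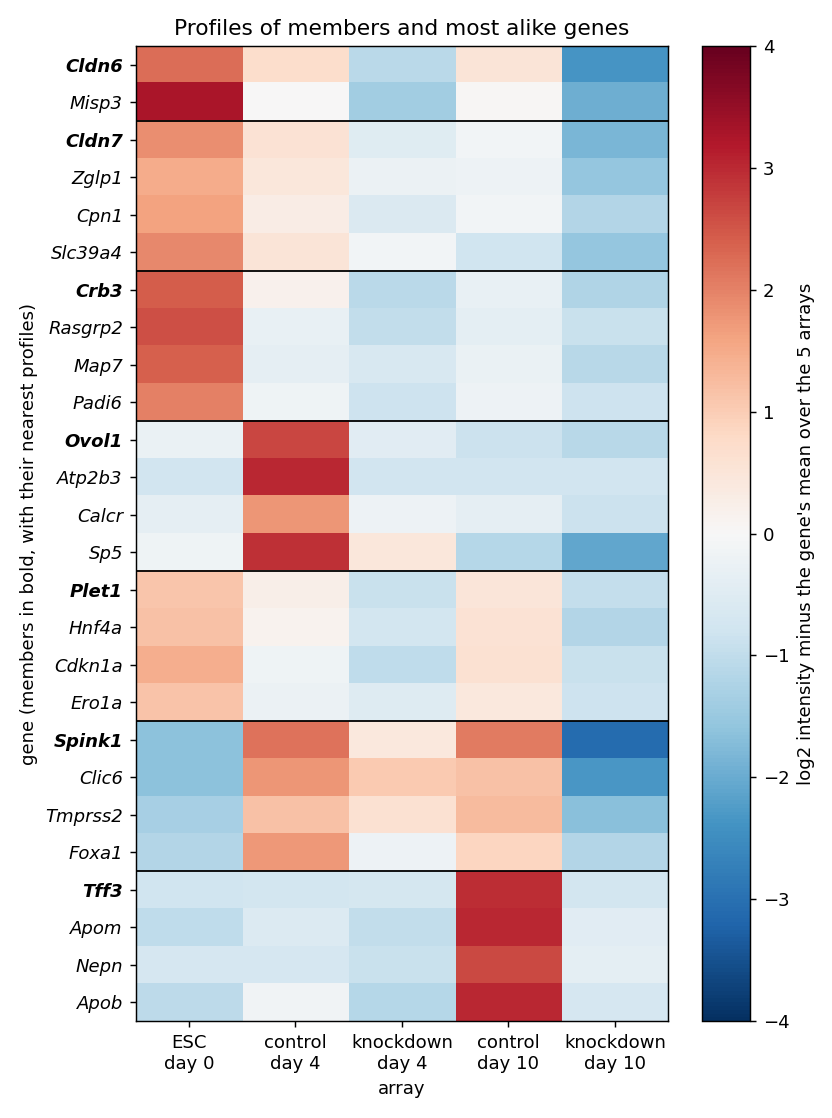
Log2 intensity minus each gene's mean over the 5 arrays (colour, blue below and red above the mean) for the members (bold) and the genes with the nearest profiles, with 1 column per array and lines between the groups of each member. Cldn6, Cldn7, Crb3 and Plet1 are reddest in ESCs, Ovol1 in control cells at day 4 and Tff3 in control cells at day 10, and Spink1 is red in both control arrays.

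Genes beside the members on their chromosomes are given as a description only. The members were picked partly for lower levels in knockdown cells, so nothing is read from a contrast with unpicked neighbours. The 28 neighbours were the 2 measured genes on each side of each member by start position, at gaps of up to 926.5 kb (Gm11149 and Plet1). At day 4, 17 passed the filter, with 1 at least 2-fold lower and 1 higher, beside 1.47% and 0.804% of all genes. At day 10, 14 passed and 0 were apart, beside 3.62% lower and 2.5% higher of all genes. The lower one was Tnfrsf12a next to Cldn6, at -1.23 at day 4 and -0.67 at day 10. The other was 1520401A03Rik, also beside Cldn6, whose single probe read 8.16 in the control and 17.26 in the knockdown array at day 4, and 8.27, 6.64 (the floor) and 8.40 in ESCs and in control and knockdown cells at day 10. Elp5 and Slc2a4, on either side of Cldn7, differed by -0.11 and -0.0038 at day 4 and by -0.07 and -0.01 at day 10. Slc25a23 and Dennd1c, on either side of Crb3, differed by -0.11 and -0.00098 at day 4 and by -0.23 and 0.04 at day 10, the second of them below the filter on both days.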

How the data were processed

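The table deposited by the authors holds 1 linear intensity per probe and array, from RNA labelled with Cy5 per the labels. Agilent Feature Extraction 10.7.1.1 is named in the submitters' processing notes; the authors' background correction and normalization are not given in the sources used here. Values at or below 0 (1050 on the knockdown array at day 10, 0 to 38 on the others) were read as a sign of subtracted background. The medians were unequal, so the arrays had not been brought to a common median. Intensities were therefore quantile normalized over the 5 arrays, floored at 100 and converted to log2 (numpy 2.4.6, pandas 2.3.3). The floor took 19.0 to 19.1% of probes per array. Detection calls were not used here. Of 26423 probes 20377 carried a gene symbol, 2126 of them brought up to date through a synonym in RefSeq's gene table of GRCm38.p6, and the brightest probe stood for a gene. No p-value was computed, since each group held 1 array, whose number limits the precision. The calling step was tested on simulated data in which only bright probes were changed, by more than 2-fold. That test does not cover dim probes or differences near 2-fold. Alternatives were no normalization between arrays, scaling to the 75th percentile, quantile normalization of the pair, loess centring (span 0.3), floors of 50 and 200, no filter or one at the 75th percentile, 4-fold as the threshold and the mean of all probes. The members, the 15 lists and the tests were chosen with earlier results of these data known. Genes named were the members and the 3 largest differences past the filter of each list, with family relatives of the members. The neighbours on the chromosome by start position were also named, as were the 3 genes of nearest profile to each member, leaving out gene models. Other names were chosen after their values were seen.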

Additional observations from a re-analysis of the deposited data

Results flagged for a closer look

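Among the 7 genes and the genes of the lists, Sema3d was the one gene at least 2-fold apart between the lines in opposite directions on the 2 days, at -1.10 at day 4 and 2.72 at day 10 (knockdown minus control, 1 array each). Its other probe gave 0.06 and 0.46, and with the values as deposited the difference at day 4 was not counted. The difference between the days was not tested. Of the 7 epithelial genes, 0 behaved in this way.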

How the results depend on the processing

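No paired analysis was possible because each group held 1 array. The 7 genes kept the counts given in the report, to within 1.5 times, under loess centring, floors of 50 and 200, no filter, the mean of all probes, scaling to the 75th percentile and quantile normalization of the pair. With a filter at the 75th percentile, 2 members were counted lower in knockdown cells at day 4 and 2 at day 10, 1 higher at day 4 than in ESCs, 0 lower and 0 higher in control cells from day 4 to day 10, and 1 lower in the knockdown line over those days. With a 4-fold threshold 1 was lower in knockdown cells at day 4 and 3 at day 10, 1 lower in control day 4 than in ESCs, and 1 lower within the knockdown line. With the values as deposited 3 members (Cldn7, Crb3, Ovol1) were lower in control cells from day 4 to day 10. Of 350 single-gene differences under the alternatives, 327 moved by less than the between-probe SD, 23 moved by more and 0 of the called ones reversed. Many of the 350 were fixed in advance. The 4-fold threshold, the filters, the floor of 50 and the mean of all probes could not move a member's difference. With the values as deposited 18 differences moved by more than that SD and 17 did not. Counts over all genes lower in knockdown cells ranged from 18 (4-fold threshold) to 239 (no filter) at day 4 and from 60 (4-fold threshold) to 480 (no filter) at day 10. Cultures, lines and arrays were single, each member had 1 probe, and signal over background was not measured here, so readings below the 50th percentile are the least certain: those of Cldn7, Crb3, Ovol1, Plet1, Spink1 and Tff3 in knockdown cells at day 10 among them.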
